A study of Mus musculus with 9 samples.

Results

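The 3 hearts given the high-fat diet (HFD) together with the vector labelled AAV-BCKDK were set against the 3 hearts given the normal diet (ND) with the control vector, AAV-CON. They are called the treated hearts (HFD AAV-BCKDK) and the normal-diet hearts (ND AAV-CON) below. These 6 libraries were chosen by their labels alone, out of 9 in the series. The remaining 3 libraries, HFD with AAV-CON, did not enter the main fit of the comparison. They are shown as levels and entered an alternative fit of the same comparison over all 9 libraries. All 9 are bulk mRNA-seq libraries from left ventricle of wild-type mice, and the labels describe the 3 in each group as biological replicates. An adeno-associated virus (AAV) is a carrier that brings a gene into the cells of a living animal. Its dose, serotype, route and promoter, the make-up and length of the diets, and the age and sex of the mice are not stated by any source used here. Diet and vector differ together between the 2 groups, so what each contributed cannot be told apart in this comparison. Which differences from a normal-diet heart are present in a high-fat-diet heart that carries the vector is the question it answers.

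BCKDK is the kinase that switches off the branched-chain ketoacid dehydrogenase, the mitochondrial complex that commits leucine, isoleucine and valine to oxidation. The phosphatase PPM1K switches the complex back on, so the kinase and phosphatase set its activity against each other. The heart burns mostly fatty acids and uses branched-chain amino acids as a minor fuel. Its large mass of contractile protein also places a steady load on chaperones, the proteins that fold other proteins.

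The 6 libraries held 32803233 to 45483044 counts in annotated genes, and 42.1% to 47.6% of those counts fell on mitochondrially encoded genes. That mitochondrial share was 42.1% to 45.7% in the normal-diet hearts and 45% to 47.6% in the treated hearts. Levels are given as CPM, counts scaled to a common library size with TMM factors over the 6 libraries. A principal component analysis of log2 CPM put the 2 groups on opposite sides of its leading axis, which carried 37.8% of the variance. The next axis carried 25.4%. On it HFD AAV-BCKDK replicate 1 was at 12.3 and replicates 2 and 3 at -13.5 and -10.2, while the normal-diet hearts ran from -12.9 to 19. Within each group the SD of log2 CPM had a median over genes of 0.12. In lymphocyte markers ND AAV-CON replicate 3 stood apart within its group. It had summed B and plasma cell markers of 184 CPM and summed T and NK cell markers of 51.2 CPM. These were the top of the normal-diet ranges, which began at 2.28 and 3.04 CPM. In HFD AAV-BCKDK these sums ran from 1.48 to 4.88 CPM and from 3.23 to 16 CPM. None of the 11 tested T and NK cell markers or 6 tested B and plasma cell markers was called by edgeR. At an unadjusted p under 0.05 the counts were 0 and 4, DESeq2 called 0 and 3, and limma-voom called 0 and 0. Cardiomyocyte markers summed to 47300 to 50600 CPM in the normal-diet hearts and 42200 to 47300 CPM in the treated hearts, with 1 of 16 called, Ckm at a log2 fold change of -0.40, a call lost in 4 of the 6 fits without 1 library. The leukocyte or myocyte share of these samples was not measured, and its part in the results below was not tested. In bulk tissue, fewer cells of a type and less RNA per cell cannot be told apart.

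In all, 873 of 13665 tested genes (6.39%) differed between the groups at an adjusted p under 0.05 by edgeR's quasi-likelihood test with Benjamini-Hochberg adjustment. Of these, 464 were higher in the treated hearts (3.4% of tested genes) and 409 were lower (2.99%). Most differences were small: 761 of the 873 were under 2-fold, while 38 were at least 2-fold higher and 74 at least 2-fold lower. The CPM values of the 2 groups did not overlap for 3892 genes, 28.5% of those tested, which include all 873 called genes. The split into higher and lower depended on the scaling, since scaling by total counts gave 770 called genes of which only 245 were higher. Leaving out 1 library left 356 to 619 called genes, with 431 when ND AAV-CON replicate 3 was the one left out. Each count of called list members below is to be read beside the 6.39% called over all tested genes. No list was tested as a set.

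**Figure D1:**
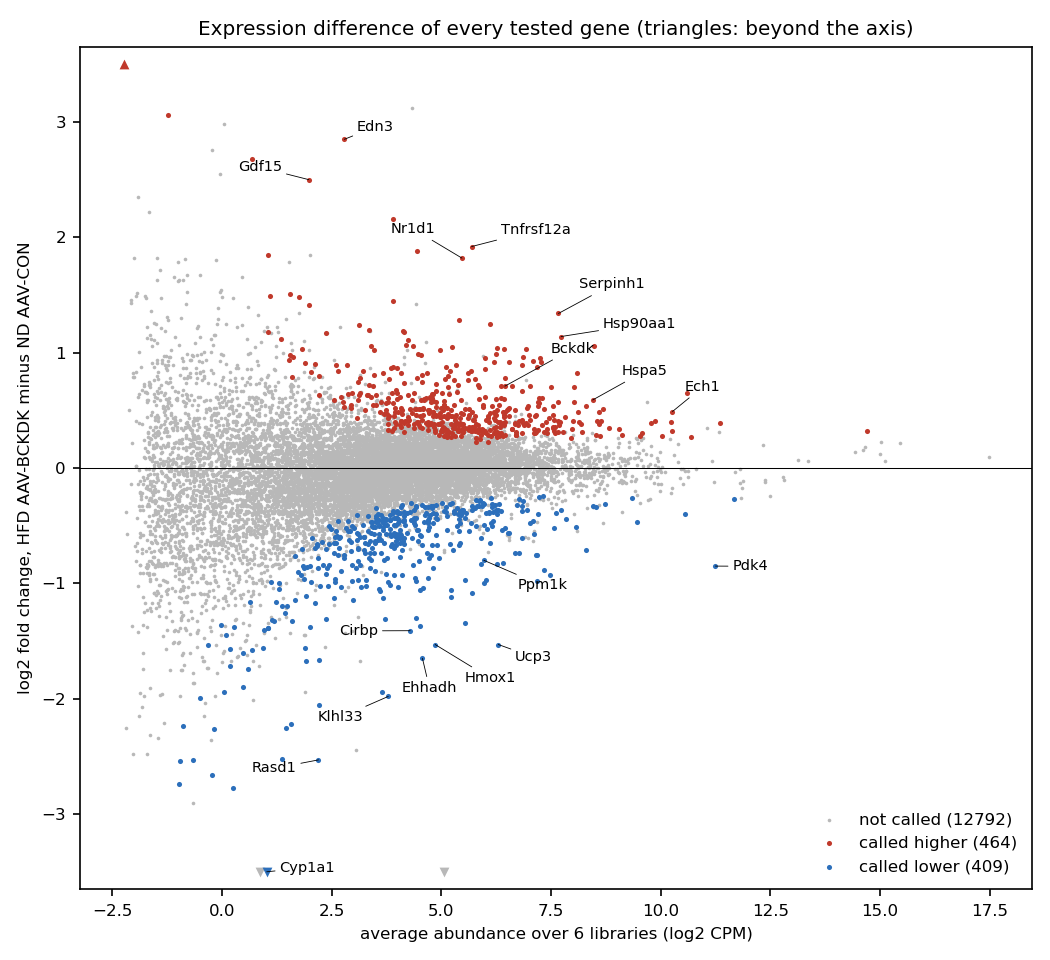
Each point is 1 of the 13665 tested genes, with its average abundance over the 6 libraries (log2 CPM) on the horizontal axis and its log2 fold change, HFD AAV-BCKDK minus ND AAV-CON, on the vertical axis. Red marks the 464 genes called higher, blue the 409 called lower and grey the rest, and triangles stand at the axis limit for genes beyond it; the point of Cyp1a1, with 0 counts in the 3 HFD AAV-BCKDK libraries, has no measured size.

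The vector's own gene came first. Bckdk (ENSMUSG00000030802, chromosome 7, 127904082 to 127910221, plus strand, GRCm38) measured 70.7, 63.8 and 64 CPM in the normal-diet hearts and 102, 114 and 109 CPM in the treated hearts. All 3 treated hearts lay above all 3 normal-diet hearts, and the log2 fold change was 0.71 (SE 0.073, adjusted p 0.00158 by edgeR), or 1.64-fold. An exact two-sided permutation test of the CPM values gave p = 0.1, the smallest that 20 arrangements of 3 against 3 can give. Gene counts do not tell transcripts of the vector from those of the mouse's own gene. In a fit over all 9 libraries the log2 fold change was 0.70, with an adjusted p of 0.07 by edgeR.

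Around the kinase, 3 of the 5 other genes of the branched-chain dehydrogenase list fell and none rose. Ppm1k, the opposing phosphatase, measured 83.5, 78.1 and 76.8 CPM in the normal-diet hearts and 43.6, 46.2 and 47.4 CPM in the treated hearts, a log2 fold change of -0.80 (SE 0.066, adjusted p 0.000793). Bckdhb, which encodes the beta subunit of the E1 component that the kinase acts on, measured 46.1, 52.2 and 44.2 against 29.2, 29.3 and 28.4 CPM, a change of -0.71 (SE 0.078, adjusted p 0.00218). Dbt, the E2 core to which kinase and E1 both bind, measured 61.4, 62.4 and 53 against 43.5, 38.7 and 38.9 CPM, a change of -0.55 (SE 0.084, adjusted p 0.00886). In each of these 3 genes the groups were well apart. Bckdha, the E1 alpha subunit that is phosphorylated, had a log2 fold change of 0.073 with an SE of 0.081 and did not pass the test. Dld, the E3 component shared with other dehydrogenases, was at -0.068 with an SE of 0.086 and did not pass either. The kinase and the 3 lower genes kept their calls when any 1 of the 6 libraries was left out. In the fit over all 9 libraries Ppm1k alone kept its call. That fit also draws its estimate of spread from the HFD AAV-CON libraries, which differed more among themselves. The chi-square per degree of freedom between 2 libraries of a group was 66.2 to 273 in HFD AAV-CON. It was 22.3 to 24.2 in ND AAV-CON and 15.4 to 19 in HFD AAV-BCKDK. The part of this spread in calls lost in that fit, here and below, was not tested.

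**Figure D2:**
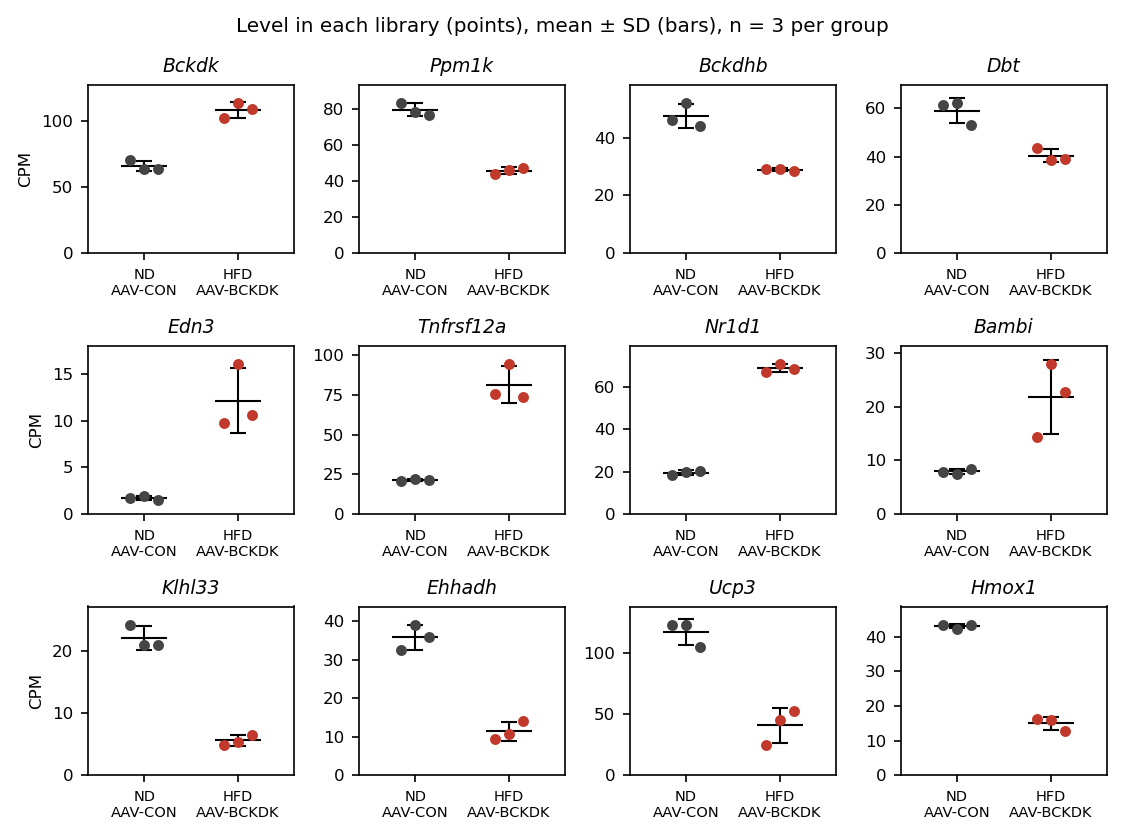
Each panel shows 1 gene, with CPM from 0 on the vertical axis, 1 point per library and bars for the mean and SD of the 3 libraries of a group. Bckdk, Edn3, Tnfrsf12a, Nr1d1 and Bambi were higher in all 3 HFD AAV-BCKDK libraries than in any ND AAV-CON library, and Ppm1k, Bckdhb, Dbt, Klhl33, Ehhadh, Ucp3 and Hmox1 were lower.

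Further along the pathway, 3 of 24 tested genes of branched-chain amino acid uptake and breakdown fell and none rose. The share called was 12.5%, beside 6.39% over all tested genes. The median log2 fold change was -0.11 against -0.013 over all tested genes. Aldh6a1, a dehydrogenase of valine breakdown, fell by 0.44 (log2, SE 0.065, adjusted p 0.0071), from 259, 276 and 259 CPM to 202, 184 and 197 CPM. Bcat2, the mitochondrial transaminase that opens the pathway, was at -0.36 and Hsd17b10, an isoleucine pathway enzyme, at -0.37; each lost its call in 7 of 15 alternatives, among them leaving out any 1 library other than HFD AAV-BCKDK replicate 1. Leaving out 1 library left 1 to 3 of the 24 called, and in the fit over all 9 libraries no gene of the list was called.

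Genes of fatty acid oxidation were higher over a broad front, though by small amounts. Of 28 tested, 13 rose and 2 fell, with a median log2 fold change of 0.21. Ech1, a mitochondrial isomerase for unsaturated fatty acids, measured 970, 1070 and 1050 CPM in the normal-diet hearts and 1500, 1460 and 1380 CPM in the treated hearts, a change of 0.49 (SE 0.065, adjusted p 0.00505). Hadha, the alpha subunit of the trifunctional protein of long-chain oxidation, measured 763, 783 and 739 against 1020, 1000 and 983 CPM, a change of 0.39 (SE 0.056, adjusted p 0.00619). Decr1, a reductase needed for polyunsaturated chains, rose by 0.51, from 343, 364 and 313 to 510, 480 and 458 CPM. Crat, which moves acetyl groups onto carnitine, rose by 0.41. Ech1, Hadha, Decr1 and Crat kept their calls when any 1 library was left out, and lost them in the fit over all 9. The carnitine shuttle genes Cpt1b, Cpt2 and Slc25a20 rose by 0.28, 0.36 and 0.35, and the acyl-CoA dehydrogenases Acadvl, Acadl and Acads by 0.30, 0.28 and 0.36. Each of these 6 calls was lost in at least 3 of the 6 fits without 1 library. The summed level of the 28 genes was 10900 to 11700 CPM in the normal-diet hearts and 13000 to 14200 CPM in the treated hearts, so no library of one group reached the other.

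The 2 genes that fell were a peroxisomal enzyme and the liver-type shuttle enzyme. Ehhadh, the peroxisomal bifunctional enzyme, measured 32.6, 39.2 and 35.9 CPM in the normal-diet hearts and 9.36, 10.6 and 14.1 CPM in the treated hearts, a log2 fold change of -1.65 (SE 0.15, adjusted p 0.000989). Cpt1a, the liver-type carnitine palmitoyltransferase, fell by 0.40, from 46.4, 47.1 and 49.3 to 35.8, 32.8 and 39.7 CPM, while the muscle-type Cpt1b was among the genes that rose. Cpt1a lost its call without any 1 library other than HFD AAV-BCKDK replicate 3. The count of oxidation genes that rose was not stable: it was 4 to 7 when 1 library was left out, 6 with total-count scaling, 14 by DESeq2 and 0 in the fit over all 9 libraries. Leaving the mitochondrially encoded genes out of the fit gave a count of 13. The mitochondrial share of counts is given above, and its part in this result was not tested.

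PPAR-alpha is the nuclear receptor that senses fatty acids. The list of its targets together with lipid uptake genes did not move as one. Of 24 tested, 2 rose and 3 fell, with a median of 0.0098. Ucp3, a mitochondrial carrier induced by fatty acids, measured 123, 123 and 105 CPM in the normal-diet hearts and 24.6, 44.9 and 52.2 CPM in the treated hearts, a log2 fold change of -1.53 (SE 0.23, adjusted p 0.00778). Pdk4, the kinase that restrains pyruvate dehydrogenase, measured 3290, 3060 and 3070 against 1440, 1700 and 2100 CPM, a change of -0.85 (SE 0.12, adjusted p 0.0071). Lpl, the lipoprotein lipase, fell by 0.27 and lost its call in 7 of 15 alternatives. Fabp3, the heart fatty acid binding protein, rose by 0.39, a call lost in 9 of 15 alternatives. The other member that rose was Tfrc, by 0.87, which encodes the transferrin receptor and serves iron uptake rather than lipid uptake. Among lipid droplet genes G0s2, an inhibitor of triglyceride lipase, rose by 0.98 and Dgat2, a triglyceride-forming enzyme, fell by 0.39, a call lost without HFD AAV-BCKDK replicate 2.

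Glucose genes also moved both ways, with 4 of 31 higher and 5 lower. Pgam1, a glycolytic mutase, rose by 0.72, from 41.9, 45.1 and 43.3 to 77.5, 71 and 65.9 CPM. Hk2, Pfkl and Pfkp rose by 0.34, 0.42 and 0.44; Hk2 and Pfkp each lost their call in 8 of 15 alternatives and Pfkl in 4. Slc2a4, the insulin-regulated glucose transporter GLUT4, fell by 0.36, from 234, 246 and 233 to 189, 185 and 182 CPM, a call lost without HFD AAV-BCKDK replicate 2. Pdp1 and Pdp2, the phosphatases that reactivate pyruvate dehydrogenase, fell by 0.78 and 0.63, alongside the opposing kinase Pdk4; Pdp2 lost its call without ND AAV-CON replicate 2. Eno3, the muscle enolase, fell by 0.47.

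Nuclear and mitochondrial genes of the respiratory chain were tested apart. None of 70 nuclear-encoded subunits of the chain and ATP synthase was called by edgeR, DESeq2 or limma-voom; 1 had an unadjusted p under 0.05, and the median log2 fold change was 0.0093. Of 13 mitochondrially encoded mRNAs, mt-Nd2 rose, from 24900, 22800 and 23400 to 29700, 31000 and 28300 CPM (0.32, SE 0.063, adjusted p 0.0204), and 12 did not pass edgeR's test. The 1 called by edgeR was 7.69% of the list, beside 6.39% over all tested genes. DESeq2 called 4 of the 13 and limma-voom 1, and 7 had an unadjusted p under 0.05. The call of mt-Nd2 was lost without ND AAV-CON replicate 2, ND AAV-CON replicate 3 or HFD AAV-BCKDK replicate 2, and in the fit over all 9 libraries. All 13 had positive log2 fold changes, with a median of 0.18 that was 0.11 with total-count scaling. Of 21 genes of the tricarboxylic acid cycle and pyruvate entry 1 fell, or 4.76%. Pcx, the pyruvate carboxylase, fell by 0.57, a call lost in 4 of the 6 fits without 1 library.

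Chaperones of the endoplasmic reticulum were higher in the treated hearts. In the list of unfolded protein response and integrated stress response genes, 17 of 33 tested members were called higher and none lower. The unadjusted p was under 0.05 for 25, counting both directions, and the median log2 fold change was 0.54. These responses raise folding capacity when unfolded protein builds up in the endoplasmic reticulum, and slow general translation while favouring the factor ATF4. Hspa5 (BiP), the main chaperone of that compartment, measured 282, 273 and 282 CPM in the normal-diet hearts and 421, 415 and 419 CPM in the treated hearts, a change of 0.59 (SE 0.055, adjusted p 0.00115). Hsp90b1, its partner GRP94, measured 194, 192 and 207 against 323, 321 and 318 CPM, a change of 0.70 (SE 0.059, adjusted p 0.000852). The 3 libraries within each group differed little beside the gap between groups in both genes.

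The rest of the list held folding enzymes, sensors and stress factors. Calr and Pdia3, which fold glycoproteins, rose by 0.54 and 0.57, and Hyou1, Manf, Creld2 and Sdf2l1, further proteins of the compartment, by 0.75, 0.88, 0.88 and 1.17. Atf6, a sensor of the response, rose by 0.55, from 65, 61.1 and 67.8 to 89.1, 100 and 95 CPM. Atf4 rose by 0.49, from 69.7, 72.5 and 77.1 to 114, 97.3 and 96.7 CPM (lost without ND AAV-CON replicate 1), and Atf5, a related factor, by 0.80. Mthfd2, a mitochondrial folate enzyme counted among ATF4 targets, rose by 1.41, from 1.94, 1.84 and 2.63 to 6.09, 5.47 and 5.53 CPM. Ddit3 (CHOP), Asns and Trib3 had positive log2 fold changes of 0.49, 0.73 and 0.59 that did not pass edgeR's test, and Ddit4 was at -0.73, also not called. Herpud1 was at -0.28 and not called. Herpud1 and Ddit4 had unadjusted p of 0.0124 and 0.0224 by edgeR. Chac1 and Shmt2 were at -0.13 and -0.036, Psat1 and Phgdh at 0.22 and 0.26, none of them called. Of the 33 members 29 had positive and 4 negative log2 fold changes. By DESeq2 20 were called higher and 1 lower. DESeq2 called Ddit3 (adjusted p 0.0226) and Asns (adjusted p 0.0397), and without HFD AAV-BCKDK replicate 1 edgeR called Ddit3 and Ddit4. The summed level of the list was 1780 to 1960 CPM in the normal-diet hearts and 2370 to 2480 CPM in the treated hearts. Between 14 and 17 genes stayed higher when 1 library was left out, and 15 were higher in the fit over all 9 libraries.

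The promoters of these genes were read because many of the members were called higher. The sequences below show the endoplasmic reticulum stress element, a paired motif described for such promoters, in the 6 called members that hold it within the RefSeq window of 250 bases before to 50 bases after the gene's start (GRCm38.p6). The search used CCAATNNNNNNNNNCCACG and its reverse complement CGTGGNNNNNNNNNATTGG, and the capitals mark the fixed letters of the motif. Each line runs 5′ to 3′ in the direction of the gene.
Hspa5, chr2:34772020-34772048, plus strand: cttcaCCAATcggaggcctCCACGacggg
Calr, chr8:84847070-84847098, minus strand: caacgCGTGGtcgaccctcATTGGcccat
Hsp90b1, chr10:86705633-86705661, minus strand: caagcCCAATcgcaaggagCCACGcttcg
Hsp90b1, chr10:86705528-86705556, minus strand: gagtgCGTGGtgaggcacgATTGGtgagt
Pdia6, chr12:17266486-17266514, plus strand: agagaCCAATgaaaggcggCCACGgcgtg
Dnajc3, chr14:118937822-118937850, plus strand: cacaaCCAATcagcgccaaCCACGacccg
Creld2, chr15:88819515-88819543, plus strand: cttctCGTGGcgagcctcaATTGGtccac

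The motif stood in 39 of all 32851 windows, 0.119%. A window was found for 14 of the 17 called members, of which 6 held the motif, and for 15 of the 16 members that were not called, of which 1 held it. Hsp90b1 carried a copy in each orientation. The motif lay closest to the start in Hspa5, at bases -65 to -47. A match describes letters in the window and is not a measured binding site. The heat shock element GAANNTTCNNGAA, or its reverse complement, stood in 0.603% of all windows. In the heat shock list described next, 12 called members had a window and 2 of them held it. Among members not called, 8 had a window and 2 held it. Members are counted as genes and a gene can have several windows, so these counts and the shares of all windows are unlike units.

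Cytosolic heat shock chaperones were higher as well. Of 25 tested genes of that list, 14 rose and 2 fell, with a median log2 fold change of 0.46. Hsp90aa1, the inducible HSP90, measured 128, 126 and 143 CPM in the normal-diet hearts and 370, 272 and 236 CPM in the treated hearts, a change of 1.14 (SE 0.15, adjusted p 0.0049). Dnajb4, a co-chaperone of HSP70, measured 103, 105 and 102 against 227, 204 and 168 CPM, a change of 0.95 (SE 0.10, adjusted p 0.00208). Hsph1 (HSP110), Dnaja1 and Hspb1 (HSP27) rose by 1.04, 0.93 and 0.82, and Hspa8, the constitutive HSP70, by 0.65. Hspb1 lost its call in 4 of the 6 fits without 1 library (each ND AAV-CON library and HFD AAV-BCKDK replicate 2), Dnaja1 without ND AAV-CON replicate 1 or 2, and Hsph1 in the fit with a replicate block. HFD AAV-BCKDK replicate 1 had the highest level of that group in Hsp90aa1, Dnajb4, Hsph1, Dnaja1, Hspb1 and Hspa8. Without it 12 genes were called higher. The count was 5 without ND AAV-CON replicate 1, 6 without ND AAV-CON replicate 2, 9 without ND AAV-CON replicate 3 or HFD AAV-BCKDK replicate 2, and 8 in the fit over all 9 libraries. Hspa1a, the inducible HSP70, had a log2 fold change of 1.42 but did not pass the test, with 18.8, 5.86 and 10.5 CPM in the normal-diet hearts and 64.5, 16.6 and 13.2 CPM in the treated hearts. It shares long stretches of sequence with Hspa1b (1.02, not called), so counts of the pair are uncertain. Without HFD AAV-BCKDK replicate 1, Hspa1a was at 0.35 and Hspa1b at -0.31.

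The 2 members that fell are known for responding to cold rather than heat. Cirbp, the cold-inducible RNA-binding protein, measured 29.2, 27.8 and 27.9 CPM in the normal-diet hearts and 9.74, 12.1 and 10.1 CPM in the treated hearts, a log2 fold change of -1.41 (SE 0.10, adjusted p 0.000406). Rbm3, a second cold-induced RNA-binding protein, measured 64.9, 68.8 and 65.2 against 28.6, 25.2 and 25.1 CPM, a change of -1.34 (SE 0.074, adjusted p 0.000146). Both kept their calls under every alternative run. Body or tissue temperature is not stated by any source used here.

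**Figure D3:**
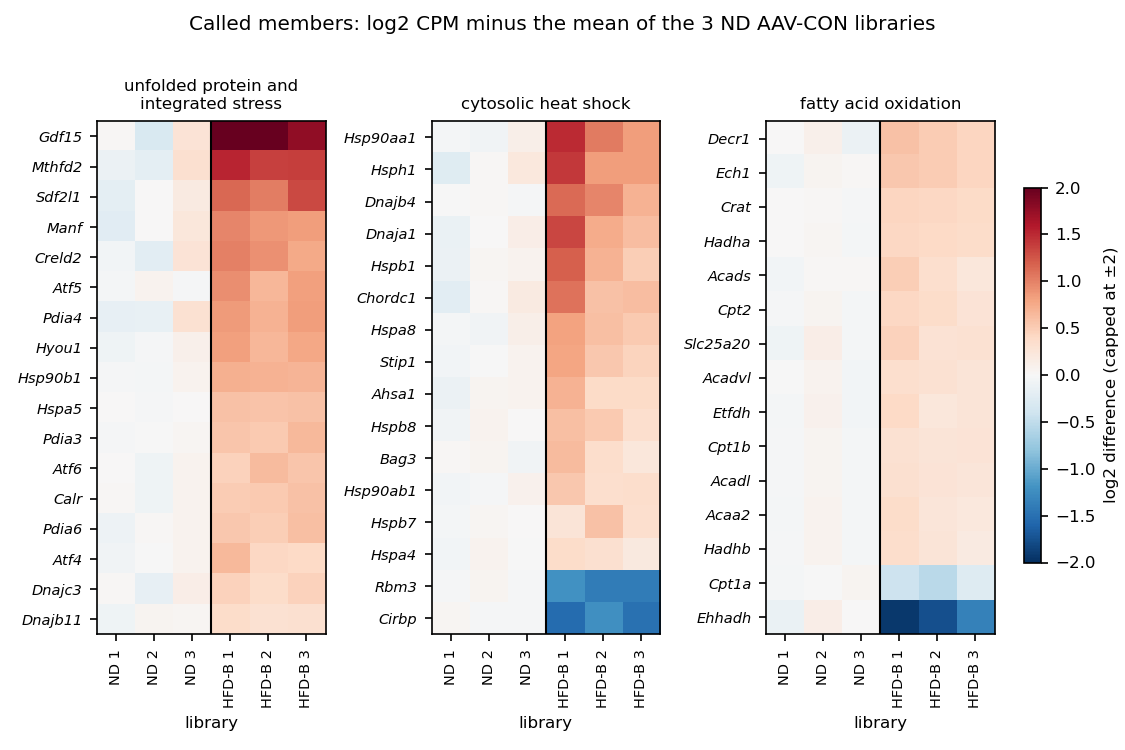
Rows are the called members of 3 gene lists, columns the 6 libraries (ND for ND AAV-CON, HFD-B for HFD AAV-BCKDK), and colour the log2 CPM minus the mean of the 3 ND AAV-CON libraries, capped at ±2. All 17 called stress-response genes and 14 of 16 called heat shock genes are red in the 3 HFD AAV-BCKDK columns, Rbm3 and Cirbp are blue, and in fatty acid oxidation 13 genes are faint red with Cpt1a and Ehhadh blue.

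Signalling genes led those that rose. Edn3, which encodes the vasoactive peptide endothelin 3, measured 1.67, 1.91 and 1.46 CPM in the normal-diet hearts and 9.7, 16.1 and 10.6 CPM in the treated hearts, a log2 fold change of 2.85 (SE 0.22, adjusted p 0.000653) or 7.2-fold. Gdf15, a stress-induced hormone of the TGF-beta family, measured 1.2, 0.956 and 1.42 against 10.1, 6.18 and 4.02 CPM, a change of 2.5 (SE 0.34, adjusted p 0.00567). Tnfrsf12a, the receptor of the cytokine TWEAK, measured 20.9, 22.3 and 21.3 against 75.8, 94.8 and 74 CPM, a change of 1.92 (SE 0.10, adjusted p 0.000143). These 3 genes kept their calls under every alternative run, as did Bambi and Nr1d1. Bambi, a decoy receptor for TGF-beta family ligands, rose by 1.45, from 7.84, 7.5 and 8.49 to 14.4, 28.1 and 22.8 CPM.

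The others of the 12 genes that rose most were less certain. Clec4d, a lectin receptor of myeloid cells, rose by 1.85, from 0.738, 0.858 and 1.08 to 4.52, 2.67 and 2.47 CPM, and lost its call in 2 of 15 alternatives, among them without ND AAV-CON replicate 1 (adjusted p up to 0.0545). Beside it, neutrophil markers summed to 3.42 to 4.55 CPM in the normal-diet hearts and 5.11 to 11.6 CPM in the treated hearts, with none of 6 called by edgeR, 2 by DESeq2, 0 by limma-voom and 3 at an unadjusted p under 0.05; their part in the result was not tested. Amd2 is nearly identical to Amd1, so its log2 fold change of 2.16 (9.55, 37.6 and 25.8 CPM in the treated hearts) is uncertain, and it lost its call in 6 of 15 alternatives. Mapk4 (1.51) and Scml4 (1.49) also lost their calls in 6 alternatives each, and Sp4 (1.48), a transcription factor, without HFD AAV-BCKDK replicate 3 and in the fit over all 9 libraries.

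Among cardiac stress genes 7 of 23 rose and 1 fell, with a median log2 fold change of 0.40. Flnc, the muscle filamin, measured 75.2, 85.4 and 77.6 CPM in the normal-diet hearts and 146, 171 and 148 CPM in the treated hearts, a change of 0.96 (SE 0.085, adjusted p 0.000989). Rcan1, a calcineurin regulator that is itself induced by calcineurin signalling, measured 76.3, 76.7 and 86 against 164, 182 and 143 CPM, a change of 1.03 (SE 0.10, adjusted p 0.00115). Xirp2 and Xirp1, proteins of the intercalated disc, rose by 0.92 and 0.71. Nppb, the B-type natriuretic peptide, rose by 0.89, from 68.8, 102 and 68.6 to 188, 143 and 112 CPM, and lost its call in 4 of the 6 fits without 1 library (ND AAV-CON replicates 1 and 3, HFD AAV-BCKDK replicates 1 and 2). Nppa, the A-type peptide, was at -0.60 and Myh7, the fetal myosin heavy chain, at 0.085, and neither passed the test. The member that fell was Ctgf, a matrix-associated growth factor, at -0.98, with 212, 167 and 199 CPM in the normal-diet hearts and 120, 95.3 and 77.4 CPM in the treated hearts.

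In the matrix list, collagen-processing proteins, collagens of types IV and VI and thrombospondin 1 were the members that rose. Of 57 tested, 9 rose and 1, Ctgf, fell, with a median of 0.069. Serpinh1 (HSP47), the collagen chaperone, measured 116, 122 and 109 CPM in the normal-diet hearts and 316, 283 and 275 CPM in the treated hearts, a log2 fold change of 1.34 (SE 0.078, adjusted p 0.000159). P4ha1 and P4ha2, which hydroxylate collagen, rose by 1.25 and 1.02, and Plod1, a lysyl hydroxylase, by 0.48. P4ha1 measured 36.4, 39.9 and 46.7 against 118, 83.9 and 90.9 CPM. The basement membrane collagens Col4a1 and Col4a2 rose by 0.54 and 0.44, Col6a2 and Col6a3 by 0.42 and 0.67, and Thbs1, a matricellular protein, by 1.06. Without 1 library 7 to 11 members were called higher; Col6a2 lost its call in 4 of these 6 fits, Thbs1 without ND AAV-CON replicate 2 or 3, and Plod1 without ND AAV-CON replicate 1. Col1a1 was at 0.36, Col1a2 at 0.054, Col3a1 at 0.15, Fn1 at -0.15 and Postn at 0.044, and none of these passed edgeR's test (Col1a1 had an adjusted p of 0.0515). DESeq2 called Col1a1 (adjusted p 0.00621), as did edgeR without HFD AAV-BCKDK replicate 1. Fibroblast markers summed to 2330 to 2430 CPM in the normal-diet hearts and 2270 to 2410 CPM in the treated hearts; none of 15 was called by edgeR, 2 were by DESeq2 and 1 by limma-voom, and 4 had an unadjusted p under 0.05.

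**Figure D4:**
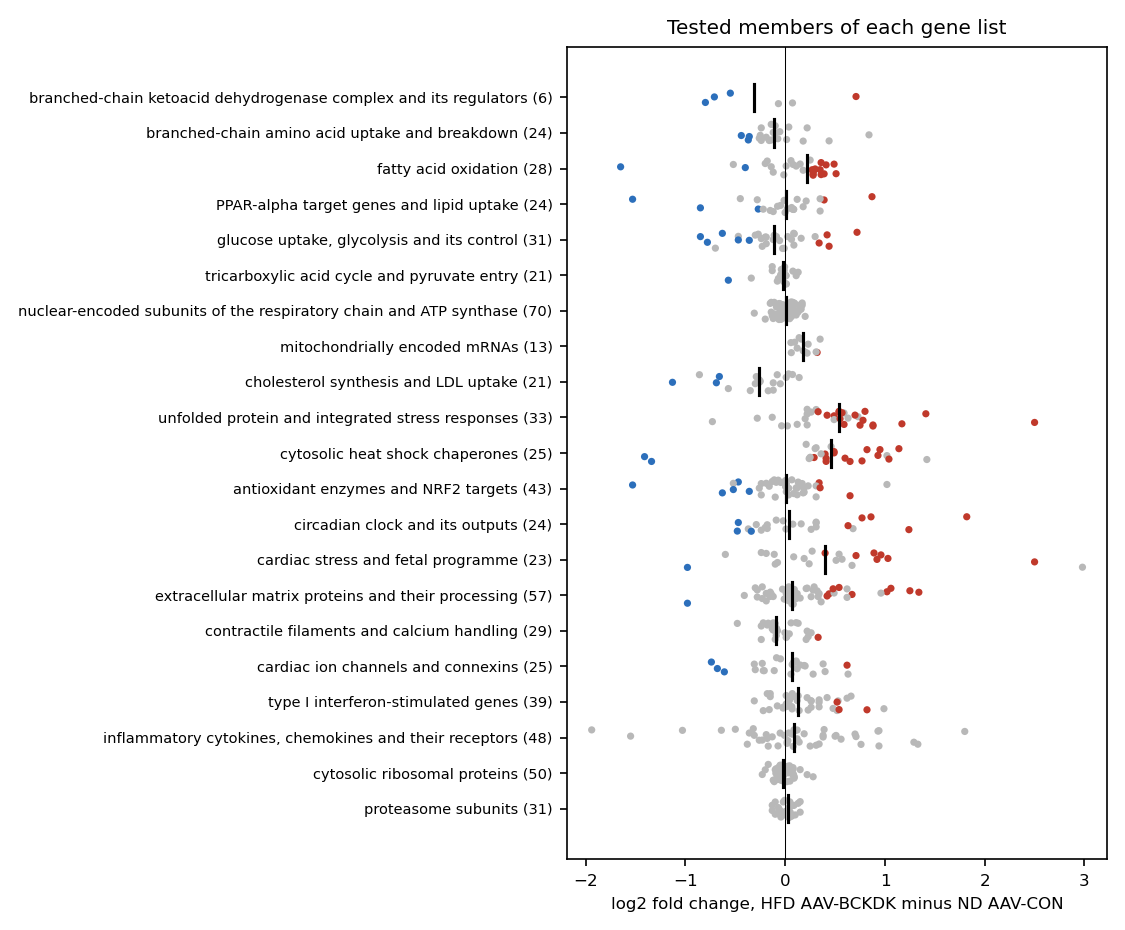
Each row is a gene list with the number of tested members in brackets, each point a member at its log2 fold change, HFD AAV-BCKDK minus ND AAV-CON, and each black bar the list's median. Red and blue points passed the test and grey ones did not; the vertical position within a row carries no meaning. The medians of the stress-response (0.54), heat shock (0.46) and cardiac stress (0.40) lists lie farthest to the right of 0.

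Clock genes differed in an uneven way. Nr1d1 (REV-ERB alpha; chromosome 11, 98767932 to 98775333, minus strand, GRCm38), the repressor that closes a loop of the circadian clock, measured 18.3, 20.1 and 20.4 CPM in the normal-diet hearts and 67.2, 71.2 and 68.7 CPM in the treated hearts, a log2 fold change of 1.82 (SE 0.070, adjusted p 1.94e-05). Nr1d2, its paralog, measured 47.6, 44.3 and 44.4 against 80.5, 88.2 and 79.5 CPM, a change of 0.86 (SE 0.069, adjusted p 0.000697). Dbp, a clock output factor, rose by 1.24, from 5.7, 5.22 and 4.69 to 10.1, 18 and 8.84 CPM, a call lost without any 1 of the ND AAV-CON libraries. Bhlhe40 and Bhlhe41, further clock repressors, rose by 0.77 and 0.63; Bhlhe40 lost its call without HFD AAV-BCKDK replicate 2 and Bhlhe41 in 5 of the 6 fits without 1 library. Cry1, a core clock repressor, fell by 0.47 and lost its call in all fits without 1 library other than that without HFD AAV-BCKDK replicate 1. Arntl (BMAL1), the activator of the core loop, was at -0.02 and Per1, Per2 and Per3 at -0.18, 0.31 and 0.0073, and none of the 4 passed the test. Of 24 clock genes 5 rose and 3 fell, and without 1 library 3 to 5 rose and 0 to 3 fell. The list's median of 0.042 became -0.026 with total-count scaling. Nr1d1 shares exon sequence with Thra on the opposite strand, and Thra was at 0.17 and not called. The hour at which the hearts were taken is not stated by any source used here.

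Cyp1a1 (chromosome 9, 57687928 to 57703824, plus strand, GRCm38), a xenobiotic-metabolising enzyme induced through the aryl hydrocarbon receptor, gave the widest gap of the genes that fell. It had 142, 176 and 163 counts in the 3 normal-diet hearts and 0 counts in each treated heart. At a floor of 3 counts over the group it was at least 140-fold lower in the treated hearts (adjusted p 0.000653), where the floor covers counting error only. It was also at 0 counts in each of the 3 HFD AAV-CON libraries. The 4 other genes of that receptor looked at, after the result was seen, did not pass edgeR's test: Ahrr was at -0.96 (adjusted p 0.0577), Tiparp at -0.13, Nqo1 at 0.31 and Cyp1b1 at -0.06. DESeq2 called Ahrr (adjusted p 0.00921) and Nqo1, and edgeR called Ahrr without HFD AAV-BCKDK replicate 1 and Nqo1 without HFD AAV-BCKDK replicate 3. The normal-diet hearts held 3.49, 4.31 and 3.73 CPM of Cyp1a1, so the signal was low but present in all 3.

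Hmox1, the heme-degrading enzyme, measured 43.4, 42.4 and 43.6 CPM in the normal-diet hearts and 16.1, 16 and 12.8 CPM in the treated hearts, a log2 fold change of -1.53 (SE 0.10, adjusted p 0.000249). It belongs to the antioxidant list, of which 3 of 43 genes rose and 5 fell with a median of 0.012. Srxn1 and Txnrd1, which recycle oxidised peroxiredoxins and thioredoxin, rose by 0.65 and 0.34. Gsta3, Gstm2 and Gstm4, glutathione transferases, fell by 0.63, 0.36 and 0.52. Without 1 library 1 to 3 genes of the list rose and 1 to 3 fell. Gstm2 lost its call in all 6 such fits, Gstm4 and Txnrd1 in 5 of 6, and Gsta3 without ND AAV-CON replicate 1 or 2. Nfe2l2 (NRF2), the factor that drives many of these genes, was at -0.13 and Nqo1, one of its targets, at 0.31, and neither passed edgeR's test. None of 13 genes that produce oxidants was called by edgeR or limma-voom, DESeq2 called 1, and 1 had an unadjusted p under 0.05.

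Klhl33, a kelch-family gene, measured 24.2, 20.9 and 20.9 CPM in the normal-diet hearts and 4.9, 5.28 and 6.48 CPM in the treated hearts, a log2 fold change of -1.98 (SE 0.13, adjusted p 0.000249). Abat, the GABA transaminase, fell by 1.94, from 20, 17.6 and 21.3 to 5.53, 6.66 and 3.27 CPM. Rasd1, a small GTPase induced by glucocorticoid, fell by 2.53, from 5.41, 8.48 and 9.11 to 1.57, 1.19 and 1.23 CPM. All 3 kept their calls under every alternative run. Angptl7, a secreted angiopoietin-like protein, was at -2.52, Tnfrsf19, a receptor of the TNF family, at -2.22, Cngb3, a channel subunit, at -1.67, Wisp2, a matricellular protein, at -1.66 and Scgb1c1, a secretoglobin, at -1.56. Angptl7 and Wisp2 lost their calls in the fit over all 9 libraries, and Scgb1c1 in 4 of the 6 fits without 1 library.

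Electrical genes differed in 4 of 25 cases, or 16%, beside 6.39% over all tested genes. Kcnip2 and Kcnd2, which together form the transient outward potassium current, fell by 0.74 and 0.68, and Kcnd2 lost its call without ND AAV-CON replicate 1. Kcnip2 measured 127, 146 and 133 CPM in the normal-diet hearts and 89.4, 74.8 and 78.6 CPM in the treated hearts. Hcn2, a pacemaker channel, fell by 0.61, a call lost in 7 of 15 alternatives, and Scn4b, a sodium channel subunit, rose by 0.62. Of 29 contractile and calcium-handling genes 1 passed edgeR's test (3.45%), Asph, higher by 0.33, a call lost in 8 of 15 alternatives. DESeq2 called 8 of the 29 (5 higher and 3 lower) and limma-voom 1, and 9 had an unadjusted p under 0.05.

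The series title names the JNK and p38 kinases, and 3 of 37 tested genes of these pathways passed the test, a share near the 6.39% called over all tested genes. Gadd45a, an upstream activator, measured 18.5, 21.2 and 16.3 CPM in the normal-diet hearts and 7.79, 6.85 and 7.85 CPM in the treated hearts, a log2 fold change of -1.31 (SE 0.12, adjusted p 0.00101). Map2k6, a kinase that activates p38, fell by 1.32, from 3.56, 2.77 and 2.81 to 0.942, 1.38 and 1.31 CPM, and lost its call in 4 of 15 alternatives, among them without ND AAV-CON replicate 1, HFD AAV-BCKDK replicate 2 or HFD AAV-BCKDK replicate 3. Dusp8, a phosphatase that acts on these kinases, rose by 0.81, from 20.5, 15 and 16.2 to 29.6, 32 and 29 CPM. These are transcript levels, and phosphorylation of the kinases was not measured. Among insulin and growth signalling genes 2 of 38 rose and 4 fell, and without 1 library 0 to 2 rose and 0 to 3 fell: Irs2, an insulin receptor substrate, was at -1.37 (lost in 5 of the 6 fits without 1 library) and Tbc1d4, which controls GLUT4 traffic, at -0.50, while Pik3r1 rose by 0.61. Tbc1d4 lost its call in 4 of the 6 fits without 1 library and Pik3r1 in 3. The share of the 38 called was 15.8%, beside 6.39% over all tested genes.

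Inflammatory gene groups showed few differences that passed the test. None of 48 cytokine and chemokine genes was called by edgeR or limma-voom, DESeq2 called 3, and 8 had an unadjusted p under 0.05. None of 23 antigen presentation genes was called by any of the 3 tools, with 1 at an unadjusted p under 0.05. Their summed level ran from 1550 to 3740 CPM in the normal-diet hearts and from 1530 to 2420 CPM in the treated hearts, the spread within groups being wide. Of 39 interferon-stimulated genes 3 rose: Oas2 by 0.82, Bst2 by 0.54 and Ifi203 by 0.52. That share of 7.69% was near the 6.39% called over all tested genes. Bst2 lost its call in 8 of 15 alternatives, Oas2 without ND AAV-CON replicate 2 or 3 or HFD AAV-BCKDK replicate 3, and Ifi203 without HFD AAV-BCKDK replicate 3. Without 1 library 0 to 3 of the 39 were called. Cholesterol synthesis genes had 3 of 21 lower, Idi1 at -1.13 (lost without ND AAV-CON replicate 2 or HFD AAV-BCKDK replicate 3), Mvk at -0.69 (lost in all fits without 1 library) and Fdft1 at -0.66, and none higher (7 at an unadjusted p under 0.05; DESeq2 called 4 of the 21 and limma-voom 3). The share of the cholesterol list called by edgeR was 14.3%, beside 6.39% over all tested genes. None of 50 cytosolic ribosomal proteins or 31 proteasome subunits was called by edgeR, DESeq2 or limma-voom. At an unadjusted p under 0.05 the counts were 1 and 0.

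The HFD AAV-CON libraries place some of these levels, as a description on a scale set over all 9 libraries and with no test. For Nr1d1 the means were 21.7 ± 1.16 CPM in the normal-diet hearts, 33 ± 8.01 CPM with HFD AAV-CON and 75.7 ± 2.66 CPM in the treated hearts (SD, n = 3 each). Hmox1 was at 47.7 ± 0.881, 41.5 ± 2.57 and 16.4 ± 1.94 CPM in the same order, and Nr1d2 at 50.3 ± 2.36, 39 ± 5.87 and 90.6 ± 5.35 CPM. For these 3 genes the treated hearts lay apart from both other groups. Bckdk itself was at 73.1 ± 4.7, 50.5 ± 14 and 119 ± 7.55 CPM.

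Other genes followed another order. Cirbp was at 31.3 ± 1.01, 9.55 ± 0.559 and 11.7 ± 1.45 CPM and Tnfrsf12a at 23.8 ± 0.703, 86.5 ± 9.99 and 89.3 ± 12.8 CPM, with the 2 high-fat groups near each other. Hspa5 was at 308 ± 7.07, 641 ± 37.1 and 459 ± 3.85 CPM and Serpinh1 at 128 ± 7.36, 426 ± 29 and 319 ± 21 CPM, in the treated hearts between the others. Gdf15 was at 1.32 ± 0.257, 27.8 ± 15.8 and 7.41 ± 3.33 CPM. Bckdhb was at 52.5 ± 4.44, 18.4 ± 8.14 and 31.8 ± 0.426 CPM, also between. Ech1 was at 1140 ± 53.6, 713 ± 403 and 1590 ± 56.4 CPM, with a wide spread in HFD AAV-CON. HFD AAV-CON replicate 3 lay between the other 2 libraries of its group for 69.1% of 9921 genes, and whether it is independent of them was not settled, so the SD of that group carries that doubt.

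**Figure D5:**
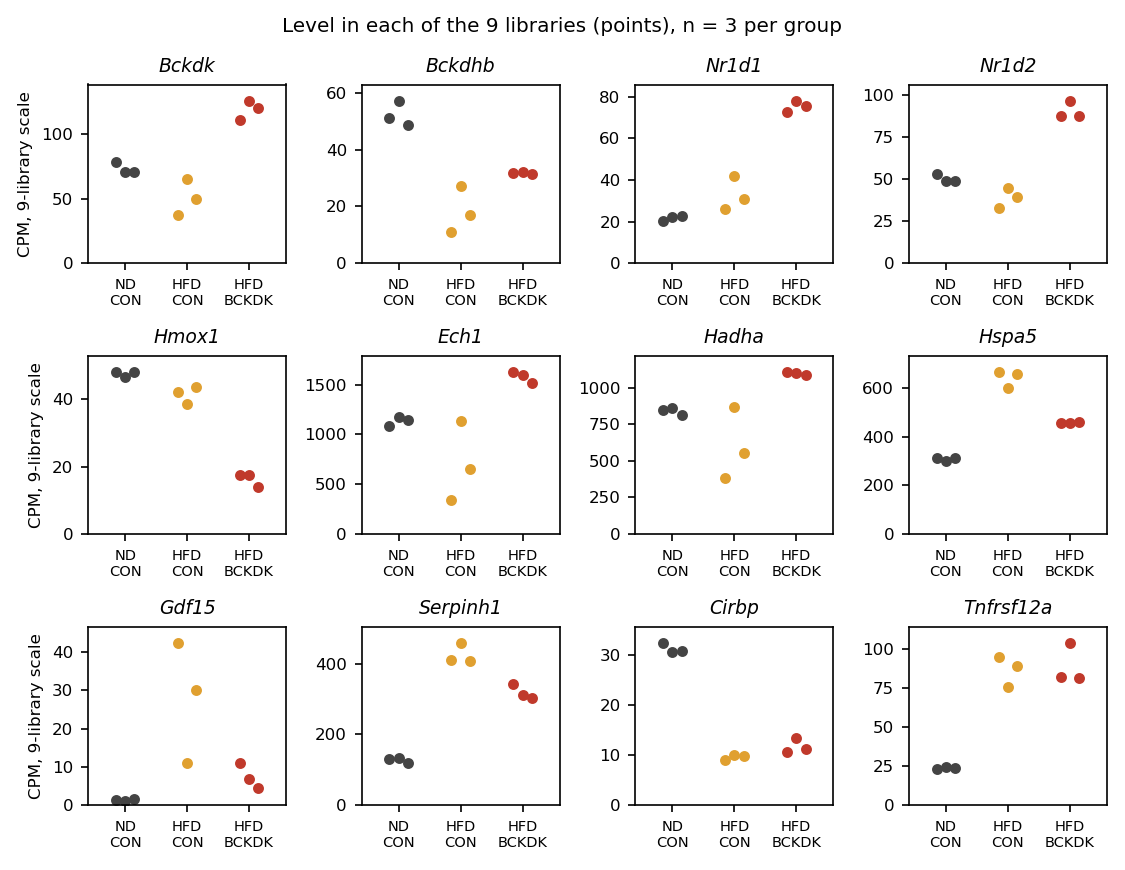
Each panel shows 1 gene in the 9 libraries (1 point each), with CPM on the scale set over all 9 libraries from 0 on the vertical axis and the normal-diet group at the left, the HFD AAV-CON group in the middle and the HFD AAV-BCKDK group at the right. Nr1d1, Nr1d2 and Hmox1 show HFD AAV-BCKDK apart from both other groups, Cirbp and Tnfrsf12a show the 2 high-fat groups near each other, and Hspa5 and Serpinh1 show HFD AAV-BCKDK between them.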

How the data were processed

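The deposited values are whole-number gene counts that the authors made, per the submitters' processing notes, from reads aligned with HISAT2 2.0.5 to mm10. No source used here gives the counter, annotation or strand setting, so genes that overlap another on the opposite strand (among those named: Acadvl, Aldh1l1, Aldh6a1, Arntl, Asph, Atf5, Bcat2, Bckdha, Bhlhe40, Bhlhe41, Ckm, Col4a1, Col4a2, Crat, Ctgf, Dbp, Ddit3, Dnaja1, Dusp8, Fabp3, Fbxo32, Fdft1, Fn1, Gadd45a, Hadha, Hsp90b1, Hspa1a, Idi1, Irs2, Kyat3, Manf, Mapk4, Myh7, Nppa, Nr1d1, Pdia3, Pdia6, Pfkp, Pik3ip1, Ppp1r3f, Rbm3, Scgb1c1, Shmt1, Thbs1, Thra, Tiparp and Xirp2) are uncertain. Of 26178 entries, the 22036 annotated ones were used; the 4142 unnamed loci held 5.58% to 6.01% of counts in the 6 libraries. The 6 libraries were fitted alone with edgeR 4.0.16 (R 4.3.3; filterByExpr, TMM scaling, quasi-likelihood test, false discovery rate 0.05), after a check on simulated counts. The text names Bckdk, the dehydrogenase complex, the 12 genes that rose and 12 that fell most among called genes whose average log2 CPM was 1 or more and whose groups did not overlap (predicted genes left out), and up to 4 leading members of each list; further list members were named after their values were seen, and some members of these sets are not reported here. The comparison and lists were chosen with earlier results of these data known. Alternatives were DESeq2 1.42.0, limma-voom (limma 3.58.1), other scalings and filters, a replicate block and leaving out each library. Coordinates are GENCODE on GRCm38; promoters are RefSeq on GRCm38.p6. The labels give no batch.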

Additional observations from a re-analysis of the deposited data

How the results depend on the processing

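Of 873 called genes (464 higher, 409 lower), the fit over all 9 libraries called 347 (167 and 180), DESeq2 1318 (709 higher), a threshold of 0.01 218 (120 and 98) and a threshold of 0.1 1451 (746 and 705). Total-count scaling gave 245 higher genes among 770, with the median of all genes moved from -0.013 to -0.082. Leaving out each library in turn gave 356 to 619 called genes, 196 to 315 higher and 160 to 304 lower. Size factors by RLE (884), a looser filter (829), the unnamed loci kept (857), limma-voom (847) and, added after seeing the data, the mitochondrially encoded genes left out (901) stayed within 1.5 times. Of the 12 genes that rose most 7 kept their call under all 15 alternatives, and of the 12 that fell most 9 did. Bckdk missed the threshold in the fit over all 9 libraries (0.70, adjusted p 0.07; range over alternatives 2.98e-15 to 0.07). Cyp1b1, which was not called at -0.06, was at 0.20 without ND AAV-CON replicate 3 and 0.03 without HFD AAV-BCKDK replicate 2, with -0.23 the lowest value of the fits without 1 library (ND AAV-CON replicate 1). Other genes that were not called changed sign: total-count scaling put Col1a2 at -0.012, Postn at -0.021 and Per3 at -0.059, and the 9-library fit put Per3 at -0.0048. Without 1 library Arntl ran from -0.059 to 0.014, Col1a2 from -0.0046 to 0.15, Hspa1b from -0.31 to 1.44, Myh7 from -0.15 to 0.22, Per3 from -0.19 to 0.25 and Postn from -0.19 to 0.23. Over the single genes and alternatives, 2526 values kept direction and side of the threshold, 520 lost the call, 11 gained it and 16 changed sign, none of them a called gene. Where not shown by the construction of the alternative, the cause was not tested.

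Groups share replicate numbers but the labels do not pair the hearts. Same-numbered libraries deviated from their group means with correlations of -0.0049, -0.17 and 0.17. Differently numbered ones had correlations from -0.28 to 0.30. With so few libraries per group these values cannot settle whether hearts were paired. A replicate block gave 324 called genes (175 higher, 149 lower), of which 319 were among the 873.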

Other observations

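Some further genes, picked after their values were seen, were called in the same comparison; they stand for no wider group. Prodh, the proline dehydrogenase, measured 14.6, 18.3 and 16.5 CPM in ND AAV-CON and 8.45, 8.3 and 6.84 CPM in HFD AAV-BCKDK (log2 fold change -1.07, SE 0.12, adjusted p 0.00264 by edgeR). Kyat3, a kynurenine aminotransferase, measured 31.8, 31.9 and 32.4 against 19, 20.4 and 18.2 CPM (-0.74). Shmt1, Aldh1l1 and Gnmt, enzymes of the folate and methyl cycles, were at -0.81, -1.33 and -1.58. Gnmt and Aldh1l1 had levels under 4 CPM in all 6 libraries, which limits their precision. Both lost their calls in 3 of the 6 fits without 1 library, and Shmt1 without ND AAV-CON replicate 1.

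The muscle ubiquitin ligases Fbxo32 (atrogin-1) and Trim63 (MuRF1) were at -0.61 and -0.48, with 131, 152 and 134 against 88.3, 95.4 and 89.3 CPM for Fbxo32. Arrdc3, Pik3ip1 and Ccng2, which are known as targets of FOXO factors, were at -1.12, -0.97 and -0.54. Ppp1r3a, Ppp1r3b, Ppp1r3c and Ppp1r3d, which bring protein phosphatase 1 to glycogen, were at 0.34, 0.65, 0.92 and 0.63; Ppp1r3b kept its call under every alternative run, and the other 3 lost theirs in 5 of the 6 fits without 1 library. The remaining tested members of that family, Ppp1r3e, Ppp1r3f and Ppp1r3g, were at -0.33, -0.21 and -1.98 and were not called. Vegfa and Egln3 were at 0.71 and 0.95. Perm1, a muscle regulator of oxidative genes, measured 134, 141 and 141 against 243, 223 and 206 CPM (0.70, SE 0.075, adjusted p 0.00208). Agtr1a, the angiotensin receptor, was at -0.95 and Adrb1, the main cardiac beta-adrenergic receptor, at 0.52, a call lost in 5 of the 6 fits without 1 library. In each called gene of both paragraphs the 2 groups did not overlap, which also held for 28.5% of all tested genes.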
